A study of Homo sapiens with 4 samples.

Results

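J-domain proteins are the co-chaperones that bring client proteins to HSP70 chaperones. Their J domain, with its conserved histidine, proline and aspartate motif, makes HSP70 split ATP and close on the client. Humans have many of them, sorted into class A (a glycine-rich and a zinc-finger region, as in bacterial DnaJ), class B (the glycine-rich region alone) and class C (only the J domain in common), and they place HSP70 in the cytosol, endoplasmic reticulum, mitochondria, ribosome or vesicles. The genes described here are those that the array's annotation names DNAJA, DNAJB or DNAJC, leaving out DNAJA1, DNAJB1, DNAJB9, DNAJB11 and DNAJC3. This gave 39 probes for 38 genes, of 20236 probes and 17606 genes with a symbol. DNAJC4 had 2 probes and every other gene 1. By class there were 3 genes of class A, 10 of class B and 25 of class C. DNAJC21 is listed on the array under its older symbol DNAJA5, and DNAJB3 is annotated by RefSeq as a transcribed pseudogene.

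The cells were DLD1 and HT29, a pair of established cell lines from human colorectal adenocarcinomas. The control medium of each line held 10 mM glucose and 2 mM glutamine, and the test medium 2 mM glutamine with no glucose. All cultures had 10% dialysed serum and were collected at 24 h. With 1 Cy5-labelled single-colour array for every combination, a change inside one line comes without replicates and without a p-value.

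Each array carried 24460 probes, of which 85.5% to 87.0% lay above the blank spots. Levels are log2 normalized intensities, and a change is the level without glucose minus the level with glucose. Genes counted as measured had a probe above the 95th percentile of the blank spots on at least 1 array, and 16624 genes, 36 of the 38 among them, met this. DNAJB7 and DNAJB8, germline class B genes, were above background on no array. DNAJB3, DNAJC6 and DNAJC5G were above it on some arrays only, so no fold is given for them. The number of arrays limits the precision. Over 1681 genes with 2 probes, the SD of a change between probes of one gene was 0.196 in DLD1 and 0.296 in HT29. This is the spread of a single probe: the SD of the difference between 2 probes, divided by the square root of 2. It holds no spread between arrays or cultures. Of 9 colorectal epithelial markers on the array, 8 were above background on all 4 arrays, CEACAM5 on 3. Their levels ran from 5.73 to 14.73. CDX1 (6.01 to 6.25) was dim in both lines, CDX2 in HT29 (5.83 and 5.88) and LGALS4 in DLD1 (5.95 and 6.13). Of the 4 fibroblast genes, 3 (COL1A1, COL1A2 and COL3A1) were below background on every array, and DCN read 7.29 to 7.37. PTPRC and ALB were below background on every array, while CD3E, CD14, VWF and APOA1 were above it on all 4, between 5.74 and 6.58. CDH5 was above it on 3 arrays, at 5.73 to 5.78. Being above background thus does not set the epithelial markers apart from these genes, as some of each were dim. The 4 genes chosen to check the response to the medium had the same direction in both lines: DDIT3, a stress-induced transcription factor, differed by 4.43 in DLD1 and 4.71 in HT29, and TXNIP, which follows glucose supply, by -0.78 and -1.06.

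The first question was how the J-domain genes responded when glucose was taken away. Most stayed near their level with glucose, as most genes did, with 28 of 36 (77.8%) under 1.5-fold in both lines (80.8% of all genes). The 28 include genes near the blank spots, where a change could hardly show: DNAJB3, DNAJC5G, DNAJC6, DNAJB13, DNAJC5B and DNAJC27. The median change of the 36 was 0.02 in DLD1 and 0.05 in HT29, against -0.00 in each line over all genes. At least 2-fold increases were found for 1 gene in DLD1 (1.13% of all genes) and 6 genes in HT29 (3.60% of all genes), and at least 2-fold decreases for 0 in either line (0.776% and 3.14% of all genes). Both directions occurred among the small changes. Higher in both lines were 16 of 36 (30.6% of all genes), lower in both 9 (32.2%), and 11 had opposite signs (37.1%). With median scaling 13 were higher and 14 lower in both lines. The size of the change was larger in HT29 than in DLD1 for 23 of 36 (61.4% of all genes). At 1.5-fold the counts were 3 higher (3.91%) and 0 lower (4.33%) in DLD1, and 7 higher (7.47%) and 1 lower (8.47%) in HT29.

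**Figure D1:**
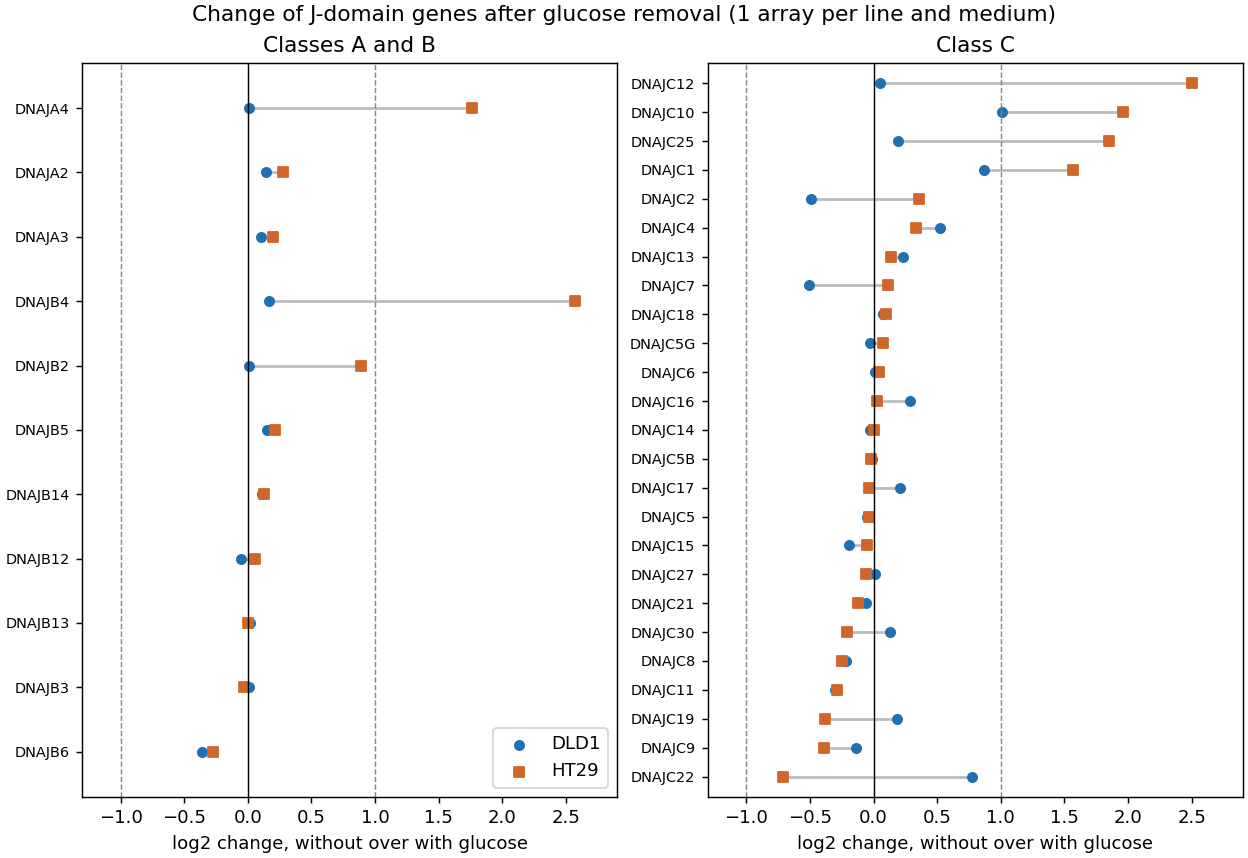
Log2 change without over with glucose for the 36 measured genes, by class, with 1 point per line (circles DLD1, squares HT29, 1 array per medium) and dashed lines at 2-fold. HT29 points of DNAJB4, DNAJC12, DNAJC10, DNAJC25, DNAJA4 and DNAJC1 lie beyond the right dashed line, while DNAJC10 is the DLD1 point that reaches it.

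The mean change of both lines was tested over all 16624 genes with limma, with the line as a block. No J-domain gene and no other gene had a limma adjusted p below 0.05, and the smallest for a J-domain gene was 0.312, for DNAJC11. At an unadjusted p below 0.05 there were 3 J-domain genes on the higher side, DNAJC1, DNAJC10 and DNAJC4, and 3 on the lower side, DNAJB6, DNAJC8 and DNAJC11. The shares of all genes at that level were 5.89% higher and 7.48% lower, 13.4% together. The 2 lines, each read once per medium, are the only repeats behind these p-values, and no label states that cultures were repeated.

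Promoter stretches are shown for the genes that the changes turn on: DNAJB4 and DNAJC12, which had the largest changes in HT29, and DNAJA4, DNAJC10 and DNAJB6, the only members with a match to a searched stress motif. Of the 38 genes, 34 had an entry in the RefSeq promoter table (GRCh38.p14, 250 bases before to 50 after the start), with 44 starts among them. DNAJB3, DNAJC1, DNAJC22 and DNAJC5B had none. Sequences run 5′ to 3′ in the direction of the gene, with a motif match in capitals, and for DNAJB4 the more upstream of its 2 listed starts was used:
DNAJC10, chr2:182716086-182716185, plus strand: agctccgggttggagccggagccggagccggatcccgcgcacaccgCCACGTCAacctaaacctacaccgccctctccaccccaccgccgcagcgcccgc
DNAJA4, chr15:78265968-78266067, plus strand: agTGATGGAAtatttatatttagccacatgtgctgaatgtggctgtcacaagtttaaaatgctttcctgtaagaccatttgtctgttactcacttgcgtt
DNAJB6, chr7:157336830-157336929, plus strand: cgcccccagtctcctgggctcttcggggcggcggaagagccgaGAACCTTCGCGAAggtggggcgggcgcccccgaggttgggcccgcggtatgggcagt
DNAJB4, chr1:77979075-77979174, plus strand: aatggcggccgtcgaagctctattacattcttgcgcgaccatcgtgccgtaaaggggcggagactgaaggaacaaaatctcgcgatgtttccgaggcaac
DNAJC12, chr10:67838189-67838288, minus strand: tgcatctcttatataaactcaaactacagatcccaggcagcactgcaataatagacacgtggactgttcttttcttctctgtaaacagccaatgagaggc

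The capitals in DNAJC10 are the reverse complement of the unfolded protein response element core TGACGTGG, 125 to 118 bases before the start. This core was found at 0.729% of the 35116 starts in the table. In DNAJA4 they are the core of the ATF4 composite element, TGATGNAA, 248 to 241 bases before the most downstream of its 3 listed starts, and the core was found at 3.62% of starts. In DNAJB6 they are a heat shock element, GAA, TTC and GAA (or TTC, GAA and TTC) with 2 bases between units, 131 to 119 bases before the start, and 0.490% of starts hold one. Searched on both strands, the endoplasmic reticulum stress element (CCAAT and CCACG, 9 bases apart, 0.0769% of starts) and its second form (ATTGG and CCACG, 1 base apart, 0.0541%) had no match among the members. Both of these share the letters CCACG with the reverse complement of the unfolded protein response element core. The DNAJB4 and DNAJC12 stretches hold none of the motifs. The genes left out by the rule had 7 starts in the table. There the search found 1 match, a heat shock element in DNAJA1, and none of the other motifs. Whether a match, or the lack of one, goes with a change was not tested. A match is a string of letters in this window, and no binding was measured.

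The larger increases found in both lines were in genes of the endoplasmic reticulum. Of the 8 genes listed here for that compartment, 7 were higher in both lines (30.6% of all genes) and 0 lower in both (32.2%). DNAJB12 was the other one, with opposite signs. These figures hold for the list used, which left DNAJC14 (-0.03 in DLD1 and -0.00 in HT29) unassigned. The count rests partly on small values: with the local background subtracted, DNAJB12 (-0.09 and -0.46) and DNAJB14 (-0.06 and -0.02) were lower in both lines, and with median scaling DNAJB12 was too (-0.19 and -0.15). DNAJC10 (ERdj5), a disulfide reductase that works with the HSP70 protein BiP in the removal of misfolded proteins, read 8.45 with glucose and 9.46 without it in DLD1, and 8.48 and 10.44 in HT29. The lines were level with glucose, and both read higher without it. The changes were 1.01 and 1.96 (DLD1 and HT29), with a mean of 1.48 ± 0.67 (SD, n = 2 lines) and a limma adjusted p of 0.362. The DLD1 change was 0.63 with the local background subtracted, and HT29 stayed between 1.77 and 2.17 over 5 other settings of scaling and background. DNAJC10 was the 1 of 36 at least 2-fold higher in both lines (0.662% of all genes), just past that limit in DLD1 and under it there in the deposited values and with median scaling or cyclic loess. At 1.5-fold, 2 genes were higher in both lines (2.17% of all genes), DNAJC10 and DNAJC1.

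DNAJC1 (ERdj1), a membrane J protein that binds BiP beside the ribosome, read 7.28 and 8.14 in DLD1 and 6.80 and 8.37 in HT29. Here too both lines were higher without glucose. The changes were 0.87 and 1.57, with a mean of 1.22 ± 0.49 (SD, n = 2 lines) and a limma adjusted p of 0.346.

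The remaining genes of this compartment differed by less than 1.5-fold between media in DLD1. DNAJC25 is a predicted membrane J protein. RefSeq also lists a readthrough gene, DNAJC25-GNG10, and whether the probe reads it too was not tested. The probe read 7.30 and 7.49 in DLD1 and 7.38 and 9.23 in HT29, so HT29 without glucose stood apart from the other 3 arrays. DNAJB2 (HSJ1), which carries ubiquitin-binding motifs and passes clients to the proteasome, read 6.24 and 6.25 in DLD1 and 6.48 and 7.37 in HT29. Its HT29 change of 0.89 was 1.59 in the deposited values. DNAJB12 and DNAJB14, membrane J proteins that help to remove misfolded membrane proteins, had changes between -0.05 and 0.13. DNAJC16 read 6.14 and 6.43 in DLD1 and 6.03 and 6.06 in HT29, a change of 0.29 in the first line and 0.03 in the second. In the deposited values its DLD1 change was 0.91, a 1.87-fold difference. DNAJC18 was at 0.07 and 0.10, or 0.45 and 0.55 in the deposited values. DNAJC16, DNAJC18 and DNAJC25 kept their signs in both lines under 5 other settings of scaling and background, as did DNAJC1 and DNAJC10.

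In HT29, 4 genes were at least 2-fold higher without glucose while DLD1 stayed under 1.5-fold (2.10% of all genes had this pattern): DNAJB4, DNAJC12, DNAJC25 and DNAJA4. DNAJC12 and DNAJA4 were dim in DLD1, where a change is hard to see. Whether the lines differed could not be tested, because 1 array per line and medium leaves no residual for an interaction. DNAJB4, a class B cytosolic co-chaperone close to DNAJB1, read 7.51 and 7.67 in DLD1 and 7.68 and 10.25 in HT29. Its changes were 0.17 and 2.57, a 5.92-fold difference in HT29, where the lowest of 5 other settings gave 2.27. With glucose the lines lay within 0.18 of each other.

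DNAJC12, a class C protein that binds the aromatic amino acid hydroxylases, read 5.81 and 5.86 in DLD1 and 6.59 and 9.09 in HT29. Its changes were 0.05 and 2.50, or 0.64 and 3.53 in the deposited values. Its deposited intensities, on a scale whose median is 25 on each array, were 3.4 and 5.3 in DLD1 and 38.9 and 449.3 in HT29, an 11.6-fold difference in HT29. DNAJC12 was thus dim in DLD1 in both media, though above the blank spots. Its DLD1 difference in the deposited values was 1.56-fold, past the 1.5-fold limit used for these genes.

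DNAJA4, a class A cytosolic co-chaperone, read 5.79 in DLD1 in both media and 7.69 and 9.46 in HT29. The HT29 change of 1.76 was 0.57 with the local background subtracted. Deposited intensities were 2.7 and 3.1 in DLD1 and 138.5 and 602.5 in HT29. In DLD1 its spot medians, 37.91 and 38.5, lay just above the 95th percentile of the blank spots, 35.8 and 36.2. The offset shrinks changes at this level, so the flat DLD1 values carry little weight. The class A relatives of DNAJA4 had smaller HT29 changes in the main setting. DNAJA2, the most general of the class, had changes of 0.14 and 0.28, and DNAJA3, the mitochondrial one, 0.10 and 0.20. All 4 of these small values were 0 or below with median scaling. With the local background subtracted the order in HT29 was the other way, DNAJA2 at 1.14 and DNAJA3 at 0.79 both lying above DNAJA4.

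**Figure D2:**
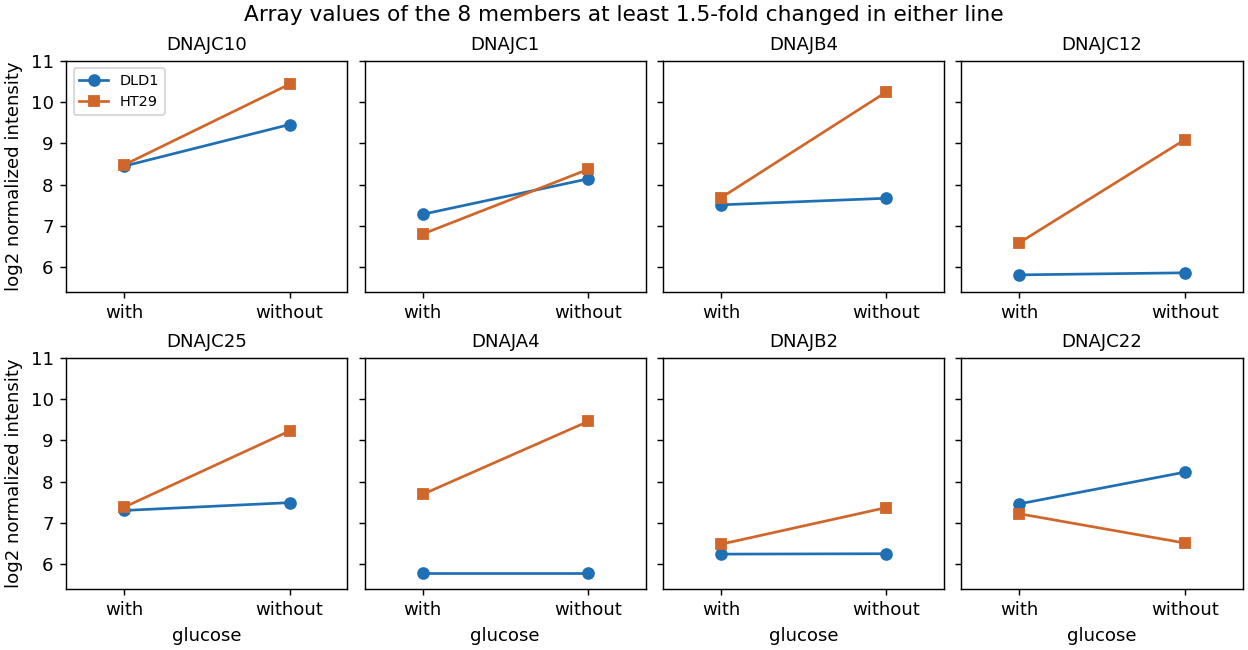
Log2 normalized intensity with and without glucose in DLD1 (circles) and HT29 (squares), 1 array per point, for the 8 genes at least 1.5-fold changed in either line. DNAJC10 and DNAJC1 are higher without glucose in both lines, DNAJB4, DNAJC12, DNAJC25, DNAJA4 and DNAJB2 mainly in HT29, and DNAJC22 moves in opposite directions.

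DNAJC22, a membrane protein whose fly counterpart, wurst, acts in clathrin-dependent endocytosis, was the member with the widest opposite change. It read 7.46 and 8.23 in DLD1 and 7.22 and 6.51 in HT29. Its changes were 0.77 and -0.71, each larger than the SD between probes of one gene. They kept their signs under 5 other settings, at 0.57 to 1.16 in DLD1 and -1.39 to -0.34 in HT29. Its mean change was 0.03 ± 1.05 (SD, n = 2 lines).

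Among the general folding genes of the cytosol, DNAJB6 was lower in both lines. DNAJB6 keeps aggregation-prone proteins soluble. It read 9.12 and 8.76 in DLD1 and 9.13 and 8.86 in HT29, changes of -0.36 and -0.27 (mean -0.31 ± 0.06, SD, n = 2 lines; limma adjusted p = 0.325). Local background subtraction widened these to -2.12 and -1.32. DNAJB5 read 7.94 and 8.10 in DLD1 and 7.75 and 7.96 in HT29, which is 0.15 and 0.21 higher, and the DLD1 value was -0.05 and the HT29 value -0.00 with median scaling. DNAJC7 (TPR2), which hands clients between HSP70 and HSP90, read 9.20 and 8.68 in DLD1 and 9.18 and 9.28 in HT29. It was lower only on the DLD1 array without glucose, by a change of -0.51, which was 0.98 with the local background subtracted. DNAJB13, a sperm axoneme protein, was dim on all 4 arrays and within 0.02 in both lines, or 0.51 higher in DLD1 in the deposited values.

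Of the 6 mitochondrial genes, none reached 1.5-fold in either line in the main setting. With the local background subtracted DNAJA3 did, at -0.98 in DLD1 and 0.79 in HT29. DNAJC4 was the highest in both. Its probes gave 0.49 and 0.56 in DLD1 and 0.31 and 0.34 in HT29, so the 2 readings of this gene lay close together (gene mean change 0.42 ± 0.14, SD, n = 2 lines; limma adjusted p = 0.335). The DLD1 change was -0.22 with the local background subtracted. DNAJC11, associated with the complex that shapes the inner membrane's folds, read 7.52 and 7.22 in DLD1 and 7.56 and 7.27 in HT29. Its changes of -0.30 and -0.29 were nearly the same in the lines. With the local background subtracted they were 0.21 and -0.02. The import motor genes DNAJC19 and DNAJC15 had changes of 0.18 and -0.38, and of -0.19 and -0.05. The DLD1 value of DNAJC19 was -0.18 with median scaling, -0.32 with the local background subtracted and -0.08 in the deposited values. DNAJC15 was dim, at 6.08 and 5.89 in DLD1 and 5.98 and 5.93 in HT29, and its deposited intensity went from 12.8 to 6.4 in DLD1. DNAJC30 was at 0.13 and -0.21, the first being 0.49 with the local background subtracted.

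The nuclear and ribosomal members were bright, and their changes were small. DNAJC8, a spliceosome-associated protein, read 9.74 and 9.53 in DLD1 and 9.57 and 9.32 in HT29, and its changes of -0.22 and -0.25 were negative under 5 other settings too, reaching -0.84 and -1.56 with the local background subtracted. DNAJC9, a chaperone of histones H3 and H4, read 11.06 and 10.92 in DLD1 and 10.70 and 10.30 in HT29. Its changes were -0.14 and -0.39, and the DLD1 value was 0.82 with the local background subtracted. DNAJC17, a splicing-related protein, was at 0.21 and -0.04, or 0.96 and 0.32 with that setting. DNAJC2, the J protein of the ribosome-associated complex, read 9.23 and 8.74 in DLD1 and 9.29 and 9.65 in HT29. It was lower in DLD1 (-0.49) and higher in HT29 (0.36), where 2 other settings brought it to 0.10 or below. Its HSP70 partner on the ribosome, HSPA14, was lower in both lines, at -1.56 and -1.17. DNAJC21, which acts in the making of the large ribosomal subunit, had changes of -0.06 and -0.12, or 0.86 and -0.52 with the local background subtracted.

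The 5 vesicle and endosome genes had small changes, from -0.05 to 0.23 in DLD1 and from -0.04 to 0.14 in HT29. DNAJC5B, DNAJC5G and DNAJC6 were near the blank spots, where a change could hardly show, and DNAJC5 was dim (6.01 to 6.29). DNAJC5, the cysteine string protein of secretory vesicles, was at -0.05 and -0.04. DNAJC13, which acts on endosomes, read 6.73 and 6.96 in DLD1 and 7.27 and 7.42 in HT29, with HT29 above DLD1 in each medium. DNAJC6 is auxilin, which uncoats clathrin vesicles, and lay above background on the HT29 array without glucose alone. DNAJC14 and DNAJC27, not assigned to a compartment in the list used here, had changes between -0.06 and 0.01 in both lines. DNAJC27, a dim gene, was at -1.10 in HT29 in the deposited values.

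The lines were then compared with each other in each medium, which asks how far the family differs before and after the loss of glucose. With glucose, 1 of 36 genes was at least 2-fold higher in HT29 (3.0% of all genes) and 0 at least 2-fold lower (2.62%). Without glucose, 5 were higher (4.55%) and 1 lower (4.56%). At 1.5-fold there were 2 higher (7.53%) and 1 lower (7.56%) with glucose, and 8 higher (9.70%) and 2 lower (10.4%) without. HT29 was above DLD1 in both media for 19 genes (35.9%) and below in both for 8 (34.2%). These comparisons use the same arrays as the changes above and are no independent evidence of them. DNAJA4 was the gene higher with glucose already, by 1.90, and by 3.66 without. With the local background subtracted these were 0.37 and 0.87, and in the deposited values 5.57 and 7.44. DNAJC12 followed at 0.78 and 3.23, or 0.15 and 1.99 with that setting. DNAJB4 (0.18 and 2.57), DNAJC25 (0.07 and 1.73) and DNAJB2 (0.24 and 1.12) were near level with glucose, and DNAJC22 was the lower gene, at -0.23 and -1.71. Its difference with glucose was 0.65 with the local background subtracted.

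Differences held in both media by genes that glucose moved little in the main setting were smaller. DNAJA2 read 10.31 and 10.45 in DLD1 and 9.59 and 9.87 in HT29. It was lower in HT29 by -0.72 and -0.58 (mean -0.65 ± 0.10, SD, n = 2 media, limma adjusted p = 0.148 with the medium as a block). These differences were -0.45 and -0.23 with median scaling and -0.59 and -0.27 in the deposited values. With the local background subtracted, its changes between media were 0.86 in DLD1 and 1.14 in HT29. DNAJC13 was 0.55 and 0.46 higher in HT29 (limma adjusted p = 0.149), and DNAJC21 0.44 and 0.37 higher (limma adjusted p = 0.155), the second being -0.05 with the local background subtracted. DNAJC9 was lower in HT29, at -0.36 and -0.62, or -0.06 and -0.19 with median scaling. DNAJC16 (-0.11 and -0.37, or -0.53 and -1.3 in the deposited values) and DNAJB5 (-0.19 and -0.13) were also lower. Limma called 0 of 16624 genes for the line difference, and 9 J-domain genes, 6 of them higher in HT29, had an unadjusted p below 0.05 (21.0% of all genes). With the deposited values limma called 2 J-domain genes, DNAJA4 and DNAJC12, both higher in HT29 (limma adjusted p = 0.0184 and 0.0471). These are 6.06% of the 33 members with values there, near the 4.96% of all 14927 genes called with those values. The fit did not take out the median shift between the lines in those values, given at the end.

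**Figure D3:**
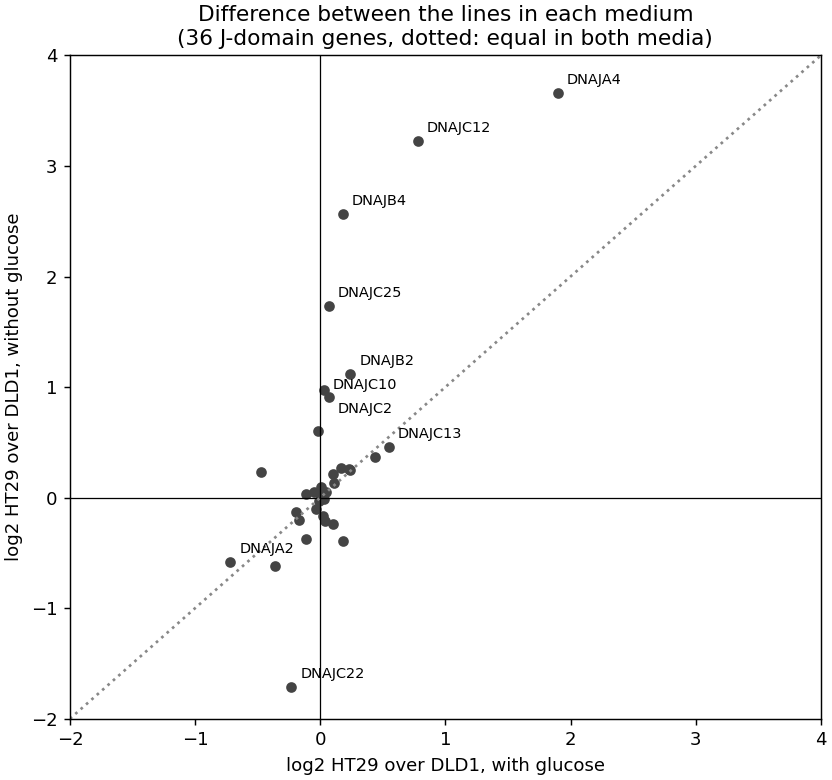
Log2 level of HT29 over DLD1 with glucose (horizontal) and without glucose (vertical) for the 36 measured genes, 1 point per gene and 1 array per line and medium. DNAJA4 lies to the right at 1.90 and up at 3.66, DNAJB4, DNAJC12 and DNAJC25 lie above the dotted line of equality, and DNAJC22 lies below it at -1.71.

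The family's partners were read in the same way. Of 25 genes for HSP70 proteins, their exchange factors and cofactors, 7 were under 1.5-fold in both lines (80.8% of all genes). For the J-domain genes it was 28 of 36, a count without the 5 genes left out by the rule. Of those 5, 0 were under 1.5-fold in both lines, so the 2 lists were not chosen alike. Among the 25 partners, at least 2-fold increases were found for 3 in DLD1 (1.13% of all genes) and 12 in HT29 (3.60%). Decreases were found for 3 (0.776%) and 1 (3.14%). HSPA5, which encodes BiP, differed by 1.95 and 2.25, and SIL1, its exchange factor, by 1.36 and 2.23, so both were higher in each line. The cytosolic exchange factor BAG3 was at -1.07 in DLD1 and 3.34 in HT29, and HSPH1 at -0.91 and 1.80. HSPA1A and HSPA1B, near-identical genes whose probes may share transcripts, were at -0.31 and 3.79 and at -0.95 and 3.28, the DLD1 value of HSPA1B being 0.28 with the local background subtracted. HSPA8, the constitutive partner of the cytosol, was 0.15 and 0.41 higher, the first being -0.18 with the local background subtracted. No gene of this list had a limma adjusted p below 0.05 for the medium. At an unadjusted limma p below 0.05, 5 were higher (5.89% of all genes) and 2 lower (7.48%).

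The 5 J-domain genes left out by the rule divided by compartment. Those of the endoplasmic reticulum, DNAJB9 (1.89 and 3.45), DNAJB11 (1.81 and 2.24) and DNAJC3 (1.64 and 2.42), were higher in both lines, and DNAJB11 reached an unadjusted limma p of 0.0051 (adjusted p = 0.304). The cytosolic DNAJA1 (-1.03 and 1.43) and DNAJB1 (-0.97 and 2.99) were lower in DLD1 and higher in HT29. In the main setting none of the 36 genes described here was lower in DLD1 by as much as these, the lowest being DNAJC7. With the local background subtracted DNAJB6 was, at -2.12 against -0.68 for DNAJA1 and -1.75 for DNAJB1. SEC63, a J-domain protein of the protein-conducting channel, was at 0.20 and 1.93, with a DLD1 value of -0.12 under median scaling. HSCB, the mitochondrial iron-sulfur co-chaperone, was at 0.51 and 0.79, and its DLD1 value was -0.20 with the local background subtracted.

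**Figure D4:**
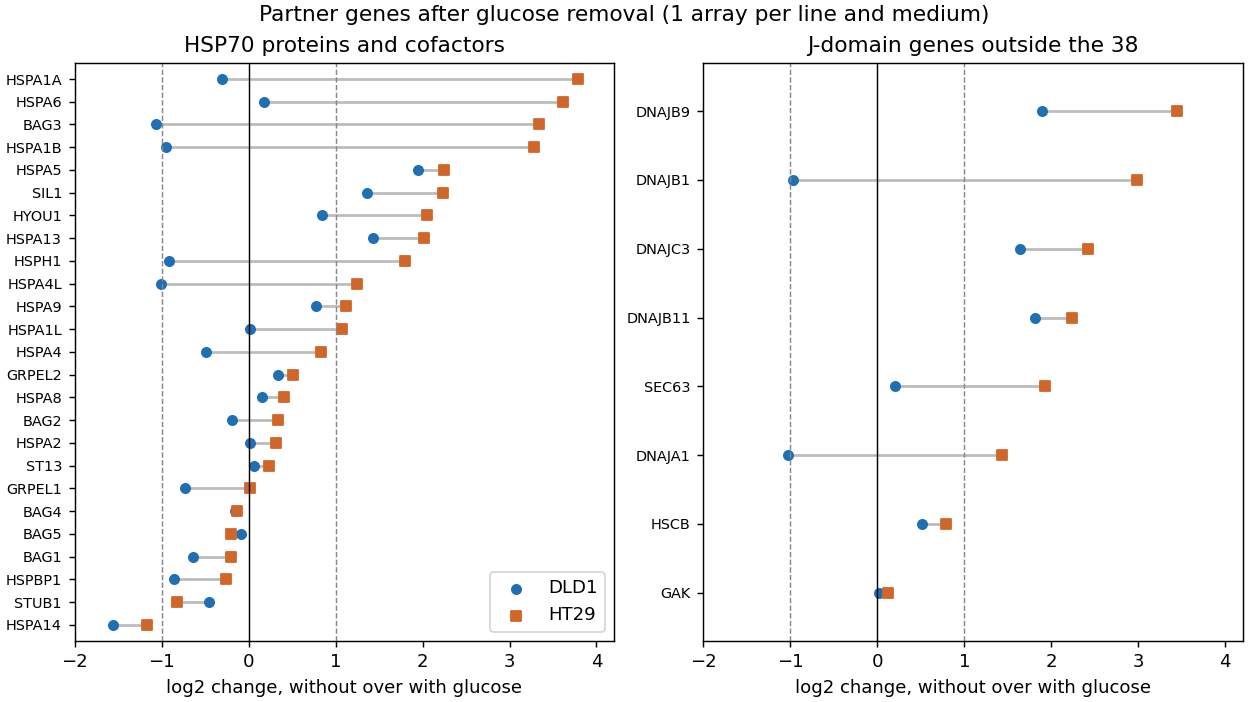
Log2 change without over with glucose for 25 genes of HSP70 proteins and cofactors and for 8 J-domain genes outside the 38, with circles for DLD1, squares for HT29, 1 array per line and medium, and dashed lines at 2-fold. HSPA5, SIL1, DNAJB9, DNAJB11 and DNAJC3 are to the right in both lines, and BAG3, HSPH1, DNAJA1 and DNAJB1 have their DLD1 point left of 0 and their HT29 point right of it.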

How the data were processed

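The members and gene lists were chosen with earlier results of these data known. Per the file headers, the deposited scanner files hold the median intensity of each spot and its surroundings at 635 nm, joined from 3 scanner gains. The authors' deposited table gives a linear intensity per probe, scaled to a median of 25 on every array. How it was made: not given in the sources used here. Spot medians were corrected with normexp (offset 50, which shrinks changes of dim genes) and quantile normalized on the log2 scale with limma 3.58.1 in R 4.3.3. The deposited local background was not subtracted in the main setting. Control spots and 1 flagged probe were left out. Probes above background on 1 array or more were averaged per gene. The platform annotation named 20236 of 24460 probes, and older symbols were updated through RefSeq. The arrays of one line are paired by the line itself. Limma fitted line and medium together (1 residual degree of freedom) with Benjamini-Hochberg adjustment over all genes. Folds within a line were counted at 2-fold without a test. Values were given on 4 arrays for members at least 1.5-fold changed in either line, the 6 highest and 6 lowest by mean change and by line difference, and at least 1 of each compartment. Compartments came from textbook knowledge. The model fit was tested on simulated gene values with planted changes. This did not exercise the background correction, the normalization or the filter on dim probes. Alternatives are given at the end. Figures were drawn with matplotlib.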

Additional observations from a re-analysis of the deposited data

Results flagged for a closer look

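DNAJC22 and DNAJC2 had opposite changes in the lines, each beyond the SD between probes of one gene. DNAJC22 was at 0.77 in DLD1 and -0.71 in HT29, a difference of -1.48 (HT29 minus DLD1), and DNAJC2 at -0.49 and 0.36, a difference of 0.85. With 1 array per line and medium these differences were not tested. In HT29, DNAJC2 was at 0.10 under median scaling and at 0.02 after local background subtraction.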

How the results depend on the processing

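Medians of the members were 0.01 to 0.09 in DLD1 and -0.00 to 0.09 in HT29 under the alternatives, against 0.02 and 0.05. All moved by less than the SD between probes. That SD is the spread of a single probe and too wide a limit to show that a median is stable. No at least 2-fold change of a single gene turned its sign. Counts at 2-fold were small and moved more. Higher genes in DLD1 numbered 0 with median scaling and with cyclic loess, 2 with offset 16 and with the local background subtracted, and 3 at 1.5-fold, against 1. Lower genes in DLD1 were 1 with the local background subtracted and 1 with the deposited values, against 0. Lower genes in HT29 were 1 with offset 16, 2 with the local background subtracted, 2 with the deposited values and 1 at 1.5-fold, against 0. For HT29 over DLD1 with glucose, 2 were higher with offset 16, with the deposited values and at 1.5-fold, and 1 lower at 1.5-fold. Without glucose, 3 were lower with the deposited values, and 8 were higher and 2 lower at 1.5-fold. Lower in both lines were 14 with median scaling, against 9. Limma called 0 members for the medium in each setting, also with no replicate block (medium alone in the model, 0 members), and 2 for the line difference with the deposited values, where 4.96% of all genes were called. The deposited values shift the median of all genes by 0.11 with glucose and 0.16 without for HT29 over DLD1. Their line differences in each medium were taken relative to it. The limma fit was not, so its calls for the line with these values still hold the shift. Of 36 members, 13 kept their direction in both lines under all 5 scaling and background settings, and DNAJC5G under the 4 that gave it a value. Of these 14, 8 were higher in both lines and 2 lower. The share of all genes that kept their direction is not given, so these counts are no result about the family. Some of the values were small, as in DLD1 for DNAJA4 (0.01), DNAJC12 (0.05) and DNAJC18 (0.07). DNAJC5G was above background on 2 arrays only. Leaving out an array was not possible with 1 per group. Single-gene values that moved by the SD between probes or more numbered 62, with 82 that did not, when the local background was subtracted. With the deposited values they were 46 and 86, with median scaling 16 and 128, and with cyclic loess 0 and 144. Dim members are limited by signal over background. Bright members moved too, as DNAJB6 in DLD1 (-0.36 to -2.12) and DNAJC8 in HT29 (-0.25 to -1.56) did with the local background subtracted. The cause of these shifts was not tested.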
